A study of Mus musculus with 20 samples.

Results

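Meg3, Rian, Mirg, Snhg14, Ube3a, Peg3, Ndn, Kcnq1ot1 and Grb10 are imprinted genes, of which the cell uses mainly the copy from 1 parent. These 9 of the 32285 genes counted were picked by name as imprinted neuronal genes, Ube3a because the study names it. Their raw UMI counts (unique molecular identifiers, 1 per captured RNA molecule) were summed per mouse and cell class. The data were single-nucleus RNA sequencing of the hippocampus of 20 male mice aged 4.5 to 5.5 months. APP/PS1 mice (APPSwe/PS1ΔE9, the familial Alzheimer's disease or fAD model) and wild-type (WT) littermates were awake, under isoflurane (GA, 5% lowered to 1.5%) or under ketamine (150 mg/kg) with xylazine (12 mg/kg), and anesthesia lasted 3 h. By the labels there were 6 WT-Awake, 3 WT-GA and 2 WT-Ketamine mice beside 3 fAD-Awake, 4 fAD-GA and 2 fAD-Ketamine mice, with 1 library per mouse, and the text that accompanies the series gives other group sizes for the awake and isoflurane mice.

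In genomic imprinting a methylation mark set in the germ line keeps a gene silent on the maternal or the paternal chromosome. Meg3, Rian and Mirg are long noncoding RNAs read from the maternal copy of the Dlk1-Dio3 region, and their transcripts carry small nucleolar RNAs and microRNAs. Ube3a encodes a ubiquitin ligase that neurons read from the maternal copy, because Snhg14, a very long noncoding RNA of the paternal copy, runs through Ube3a in the antisense direction, and loss of maternal UBE3A causes Angelman syndrome. Ndn (necdin) is a paternally expressed gene of that same chromosome region. Peg3 is a paternally expressed zinc finger protein, Kcnq1ot1 a paternal antisense RNA inside Kcnq1, and Grb10 an adaptor protein of insulin signalling. The counts hold no allele, so every level given here is the sum of both parental copies.

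The members lay on 3 mouse chromosomes (GRCm38 annotation). Meg3 (chr12:109541001-109571726), Rian (chr12:109603940-109661716) and Mirg (chr12:109729764-109749460) follow one another on the plus strand, and annotated microRNA genes on the same strand numbered 2 within Meg3, 4 within Rian and 14 within Mirg. Snhg14 (chr7:59307924-59975759, minus strand) held 208 annotated small nucleolar RNA genes and overlapped Ube3a (chr7:59228750-59311536, plus strand) by 3613 bases. Ndn (chr7:62346569-62350262, plus strand), Kcnq1ot1 (chr7:143203458-143296549, minus strand) and Peg3 (chr7:6703892-6730431, minus strand) lay elsewhere on chromosome 7, and Grb10 (chr11:11930508-12038683, minus strand) on chromosome 11. The sources used here do not give the strand setting of the counting, so reads of Ube3a against Snhg14, and of Kcnq1 against Kcnq1ot1, where they overlap are uncertain.

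The 250 bases ahead of the RefSeq start of Peg3 and Ube3a and of the first of 2 RefSeq starts of Meg3 (GRCm38.p6) are shown because the cell class, ketamine and genotype results below turn on these genes. Capitals mark TGACGTCA, the full cAMP response element, in Meg3 and Peg3, and in Ube3a the reverse strand of GCCATNTT, a core of the YY1 motif.
Meg3 (chr12:109540746-109540995, plus strand): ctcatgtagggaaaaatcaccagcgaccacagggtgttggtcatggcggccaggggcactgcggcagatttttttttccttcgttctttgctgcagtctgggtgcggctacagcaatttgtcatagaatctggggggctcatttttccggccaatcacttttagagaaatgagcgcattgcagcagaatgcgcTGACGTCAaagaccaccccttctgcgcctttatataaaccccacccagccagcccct
Peg3 (chr7:6730420-6730669, minus strand): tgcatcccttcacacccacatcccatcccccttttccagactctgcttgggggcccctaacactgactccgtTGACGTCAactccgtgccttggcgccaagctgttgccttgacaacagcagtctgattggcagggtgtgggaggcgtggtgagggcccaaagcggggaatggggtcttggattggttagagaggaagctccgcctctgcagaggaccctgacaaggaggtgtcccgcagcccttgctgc
Ube3a (chr7:59228500-59228749, plus strand): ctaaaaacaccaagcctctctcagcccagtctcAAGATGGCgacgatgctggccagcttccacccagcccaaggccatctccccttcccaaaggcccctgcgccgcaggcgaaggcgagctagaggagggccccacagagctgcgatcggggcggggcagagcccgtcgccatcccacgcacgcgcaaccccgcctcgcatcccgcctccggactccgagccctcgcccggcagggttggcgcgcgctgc
Of the motifs fixed for the search on both strands (TGACGTCA, the shorter TGACG, which every TGACGTCA also contains on both strands, and GCCATNTT), TGACGTCA lay at -57 to -50 in Meg3 and at -178 to -171 in Peg3, and GCCATNTT at -217 to -210 in Ube3a, counted from the start. The shorter TGACG also lay at -42 to -38 in Kcnq1ot1 and at -160 to -156 in 1 of the 2 windows of Grb10. In 32851 RefSeq promoter windows TGACGTCA was present in 1.79%, TGACG in 20.8% and GCCATNTT in 6.05%. The second window of Meg3 (chr12:109545148-109545447) and those of Rian, Mirg, Snhg14 and Ndn held none of the 3 motifs, which says only that these letters are not in them.

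The libraries held 160777 nuclei, with 9243992 to 25394891 UMIs and a median of 1235 to 3169 UMIs per nucleus. The fixed markers picked seed nuclei, and 148402 nuclei (92.3%) were placed in 13 classes by a likelihood over 1814 profile genes, among them 98051 neurons. A stricter marker gate, used as an alternative, kept 37161 nuclei (23.1%). Each class is called by the type its markers point to (CA1-like and so on). No 2 libraries shared more than 0.407% of the smaller one's cell barcodes. Mitochondrial RNA made up 0.939 to 1.78% of the counts of libraries 1 to 4, and 0.0353 to 0.336% elsewhere. Prnp, whose promoter drives the transgenes of this model, ranged from 49 to 443 CPM (UMIs of the gene in 1000000 UMIs of the sum) over neurons in the mice labelled fAD and from 31 to 175 in those labelled WT, so the groups overlap and are called here as labelled. It was low in mice 11, 17 and 20 labelled fAD (49.3, 58.4 and 89.0, against 163 or more in the other mice so labelled) and highest among mice labelled WT in mouse 14 (175, against at most 113), so genotype results are also given without these 4 mice. Arc and Npas4, which neuronal activity induces, were lower than awake under isoflurane (log2 fold change -2.27 and -1.92 over all nuclei) and under ketamine (-2.79 and -3.18), in the direction that the treatment labels give.

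Meg3 was highest in inhibitory-like nuclei and lowest in astrocyte-like nuclei among the classes with enough nuclei in every mouse. Its level was 13686 ± 2662 CPM (SD, n = 20 mice) in inhibitory-like nuclei, 11440 ± 2226 in other glutamatergic-like, 9650 ± 1805 in CA1-like and 8424 ± 1430 in CA3-like nuclei. It was 2059 ± 352 in dentate gyrus (DG) granule-like nuclei, 1326 ± 411 in oligodendrocyte precursor-like (OPC-like), 542 ± 215 in oligodendrocyte-like and 461 ± 179 in astrocyte-like nuclei. In microglia-like nuclei it was 1131 ± 562 over the 17 mice with at least 50 such nuclei. In this order granule-like nuclei stood more than 1 SD above OPC-like nuclei and below all the other main neuronal classes, while neighbours among inhibitory-like, other glutamatergic-like, CA1-like and CA3-like nuclei lay within 1 SD of each other.

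Rian and Mirg, transcribed downstream of Meg3, showed the same order of these neuronal classes. Rian fell from 671 in inhibitory-like nuclei through 617, 471 and 452 in other glutamatergic-like, CA1-like and CA3-like nuclei to 125 in granule-like nuclei, and it was 24.0 in astrocyte-like nuclei. Mirg fell from 149 through 116, 92.3 and 86.1 to 23.1 in granule-like nuclei, and it was 4.05 in astrocyte-like nuclei. The values are means over 20 mice within 1 gene, and the 3 genes are not compared with each other because 3′ UMIs do not measure molecules per length.

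Snhg14 and Ube3a differed less among neurons and dropped towards glia. Snhg14 was at 1091 in inhibitory-like, 1033 in other glutamatergic-like, 914 in CA1-like, 911 in CA3-like and 669 in granule-like nuclei, against 224 in OPC-like, 136 in microglia-like, 83.7 in astrocyte-like and 75.9 in oligodendrocyte-like nuclei. Ube3a was at 2134, 1789, 1505, 1614 and 1125 in the same 5 neuronal classes, against 395 in OPC-like, 417 in microglia-like, 230 in astrocyte-like and 229 in oligodendrocyte-like nuclei. For both genes the step from granule-like nuclei to the highest of these glial classes was larger than 1 SD. Snhg14 in CA3-like nuclei (911 ± 123) also stood more than 1 SD above granule-like nuclei (669 ± 92.7, SD, n = 20), and the other neighbours among these 5 neuronal classes lay within 1 SD of each other for both genes.

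Peg3, Kcnq1ot1, Grb10 and Ndn were not confined to neurons by their levels. Peg3 was at 265 in inhibitory-like and 187 in other glutamatergic-like nuclei, yet 99.9 in astrocyte-like nuclei, beside 88.9 in CA1-like, 86.2 in CA3-like and 72.4 in granule-like nuclei. Kcnq1ot1 had its highest mean in choroid plexus-like nuclei, 946 over the 7 mice with at least 50 of them, against 609 in inhibitory-like and 169 in astrocyte-like nuclei. Grb10 was at 194 in choroid plexus-like nuclei (7 mice) and 150 ± 94.7 in mural and fibroblast-like nuclei (SD, n = 14), above 101 in inhibitory-like nuclei by less than 1 SD, and 4.28 in oligodendrocyte-like nuclei. Its mural and fibroblast-like mean pools 219 awake (n = 6), 149 under isoflurane (n = 4) and 47.6 under ketamine (n = 4). In ketamine mice it lay below inhibitory-like nuclei (99.5), and treatment was not tested in this class. Ndn means lay between 9.05 (endothelial-like, 1 mouse) and 45.6 (Cajal-Retzius-like, 5 mice) over the classes, and no neighbours in its order differed by more than 1 SD.

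**Figure D1:**
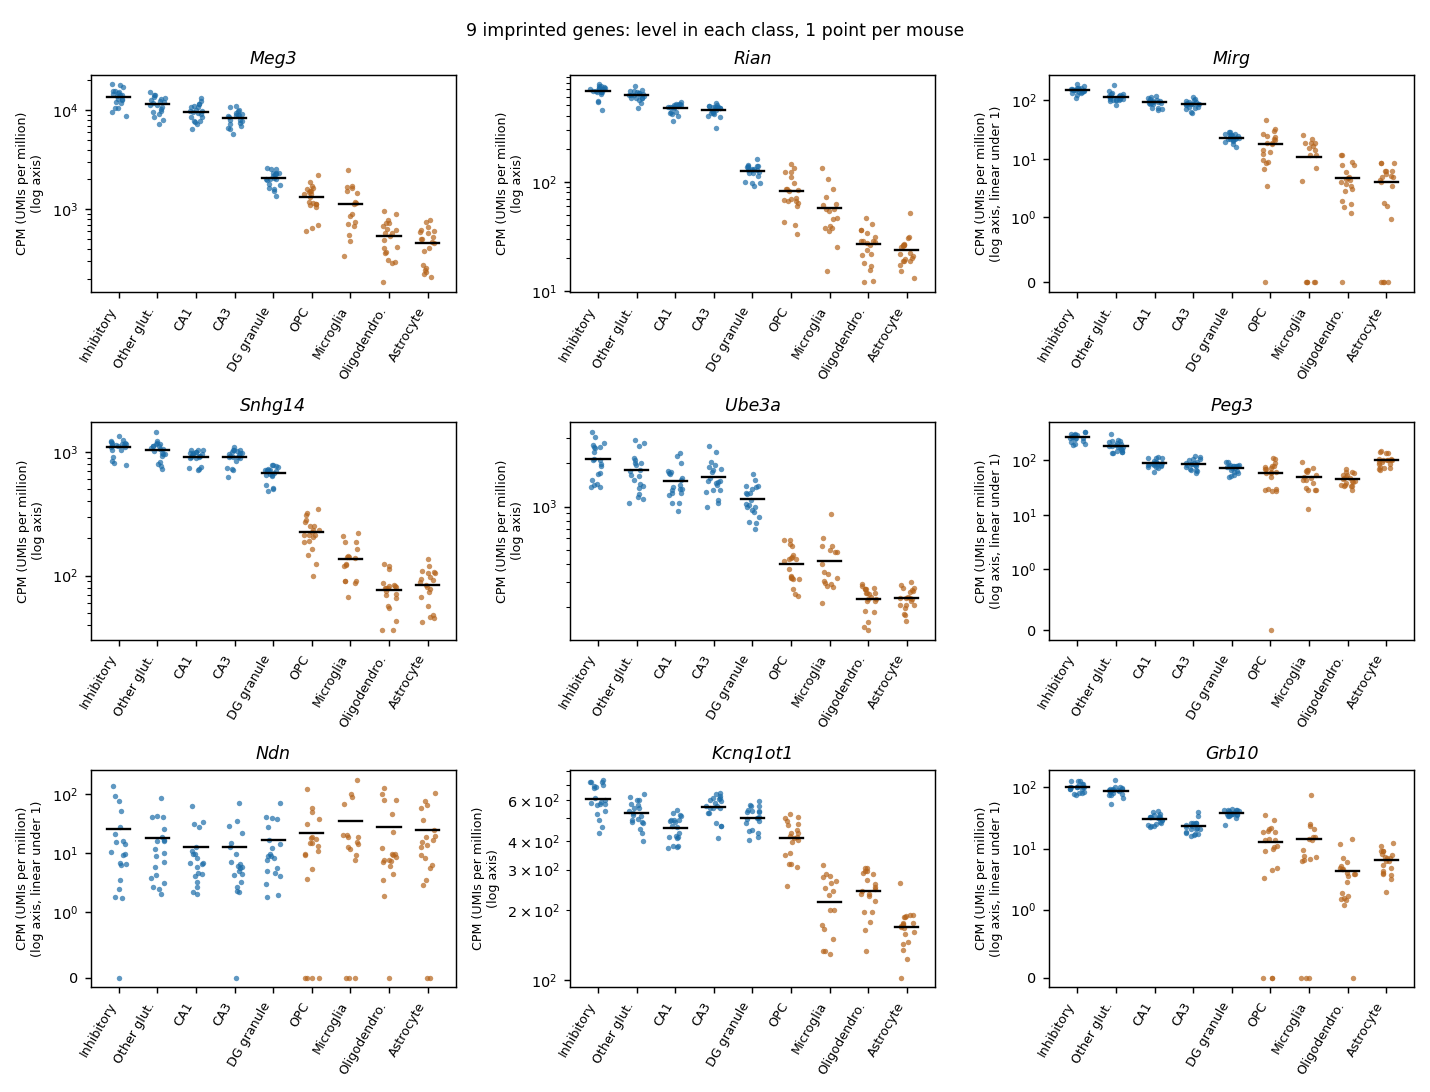
Level of each of the 9 genes in CPM (log axis, linear under 1 where stated) in 9 cell classes, with 1 point per mouse with at least 50 nuclei, neuronal classes in blue, glial classes in brown, and a bar at the mean. Meg3, Rian and Mirg step down between CA3-like and DG granule-like nuclei (Meg3 from 8424 to 2059), Snhg14 and Ube3a between granule-like nuclei and glia, and Ndn spreads over the mice in every class.

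The sum of all neurons was next set against the sum of all non-neuronal nuclei of the same mouse. By edgeR's quasi-likelihood test with Benjamini-Hochberg adjusted p under 0.05 and the mouse as a block, 8 members were higher in neurons, a direction called for 40.5% of 19022 genes, and 1 was lower, called for 42.4%. Calls in both directions together made 82.9% of the genes, so the size of the difference tells more than its call. The members' median log2 fold change was 2.85, against -0.03 over all genes tested. The members were picked as imprinted neuronal genes, so a median above that of all genes follows from the choice and is no support.

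Meg3 in neurons had its lowest value at 5014, its median at 7788 and its highest at 10585 CPM over the 20 mice, and in non-neuronal nuclei it was 4.82 to 12.9% of the same mouse's neuronal level (median 8.19%). Its log2 fold change was 3.97 (SE 0.09, adjusted p = 2.82e-23), or 15.7-fold. Rian followed with 3.84, Mirg with 3.68 and Snhg14 with 3.55, and their non-neuronal levels had medians of 9.08%, 9.47% and 10.5% of the neuronal level. For Ube3a the fold change was 2.85 (7.22-fold), and its non-neuronal level was 12.2 to 26.1% of the neuronal one with a median of 18.0%.

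Free RNA from broken cells enters every droplet, so these percentages were set beside those of pan-neuronal genes, which glia should lack. Non-neuronal nuclei held a median of 6.98% of the neuronal level of Syt1 (3.67 to 12.7%), 8.90% of Rbfox3 (4.19 to 11.9%) and 20.1% of Snap25 (10.2 to 48.2%). Meg3, Rian and Snhg14 exceeded all 3 of these genes in 0 of 20 mice and Mirg in 1. The medians of Rian, Mirg and Snhg14 lay above those of Syt1 and Rbfox3 and below that of Snap25, the median of Meg3 lay between Syt1 and Rbfox3, and the part of free RNA in these levels was not tested. Ube3a exceeded all 3 in 8 of 20 mice. Peg3, Ndn and Kcnq1ot1 did so in 20 of 20 mice and Grb10 in 18, with medians of 62.2%, 156%, 48.3% and 36.5% of the neuronal level.

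The remaining fold changes were smaller. Grb10 was higher in neurons by 1.51 on the log2 scale, Kcnq1ot1 by 1.37 and Peg3 by 1.03, whereas Ndn was lower (-0.28, adjusted p = 0.0153). Ndn was called in 6 of the 8 settings run, and it turned to 0.22, not called, when every nucleus was thinned to 1000 UMIs. The TMM scaling of the test raised each of these member values by 0.37 over plain CPM, on which the median of all genes was -0.36. Among 42 other imprinted genes on a fixed list, 36 were tested, of which 16 were higher in neurons, 16 were lower and 4 were not called. The 10 with the smallest adjusted p were, higher in neurons, Rasgrf1 (3.36), Usp29 (3.22), Kcnk9 (3.22), Rtl1 (2.95), Zdbf2 (1.88), Ppp1r9a (0.75), Snrpn (1.79), and, lower, Ddc (-4.58), Igf2 (-3.06) and Plagl1 (-2.25).

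Granule-like nuclei were then compared with the pyramidal CA1-like and CA3-like nuclei of the same mouse, a comparison added after the class levels had been seen, so its fold changes and calls describe those levels and add no support to them. Meg3 was lower in granule-like nuclei in 20 of 20 mice, at 2059 ± 352 against 9180 ± 1658 CPM (SD, n = 20), and the ratio of the pyramidal to the granule level ran from 3.69 to 5.30 with a median of 4.34. The log2 fold change was -2.24 (SE 0.03, edgeR), or 4.74-fold lower. Mirg (-2.03) and Rian (-1.98) were lower to a like degree, also in 20 of 20 mice. In all, 6 members were lower, as were 33.1% of the 16731 genes tested, 2 were higher, as were 36.6%, and 1 was not called, with 69.7% of genes called in either direction.

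Ube3a and Snhg14 were both lower in granule-like nuclei by 0.54 on the log2 scale, and the ratio of the pyramidal to the granule level was 1.23 to 1.52 for Ube3a and 1.26 to 1.50 for Snhg14. Peg3 was lower by 0.37, and Ndn (0.36) and Grb10 (0.38) were higher. With the stricter marker gate neither was called, at 0.06 for Ndn and 0.33 for Grb10, and on nuclei thinned to 1000 UMIs Ndn was at 0.18 and not called. Kcnq1ot1 was at -0.06 and not called, but it was called lower in 3 of the 8 settings run (-0.06 with DESeq2, -0.06 with RLE scaling and -0.07 without mice 1 to 4) and turned to 0.041, not called, on thinned nuclei. The TMM scaling shifted each member value of this comparison, that of Meg3 included, by -0.09 from plain CPM. On plain CPM the median of all genes was 0.11. The ratio of the pyramidal to the granule CPM level of Kcnq1ot1 had a median of 0.973, so the sign of its small difference depends on the scaling. Of the other imprinted genes 32 were tested, 11 higher, 14 lower and 7 not called. Rtl1, which lies between Meg3 and Rian and codes for a retrotransposon-derived protein, was lower (-1.84), as were Zdbf2 (-1.81) and Snrpn (-0.82), while Usp29, a neighbour of Peg3, was higher (0.79). Dlk1 and Begain of the same region as Meg3, looked up after the values were seen, were also lower, by 2.16 and 0.63.

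**Figure D2:**
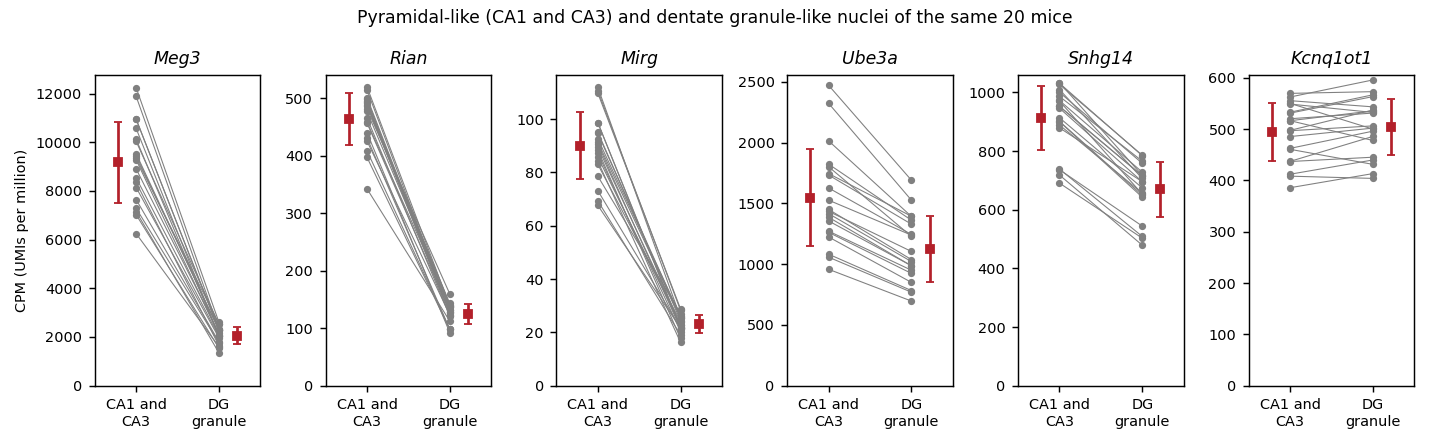
Level of 6 members in CPM in CA1-like and CA3-like nuclei together and in DG granule-like nuclei, with 1 line per mouse and red squares with bars for the mean and SD over 20 mice. For Meg3, Rian, Mirg, Ube3a and Snhg14 the line falls in each of the 20 mice, for Meg3 from a mean of 9180 to 2059, and for Kcnq1ot1 lines run both ways.

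The genes whose levels ran most alike over 177 sums of 9 classes by mouse were listed for 3 members, as a description, since the sums share libraries and most of the likeness is that between cell classes. For Meg3, of 13032 genes that were no members the nearest included Snhg11 (Pearson r of log2 levels 0.97), Zfp385b (0.94), Cntnap2 (0.94) and 4933413L06Rik (0.93), beside 0.97 for Rian and 0.92 for Mirg. For Ube3a they were Frmpd4 (0.92), Tenm2 (0.92), Nrg3os (0.92), Syt1 (0.91) and Dlgap2 (0.91), and Snhg14 itself was at 0.96. For Snhg14 the order was Tenm2 (0.96), Rbfox1 (0.96), Frmpd4 (0.96), Nrg3 (0.95) and Syt1 (0.95).

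Mice differed from each other by amounts that bear on the treatment groups. Over the 20 neuronal sums the highest level was 2.38 times the lowest for Ube3a, 2.11 times for Meg3, 2.12 for Grb10, 1.89 for Peg3 and between 1.51 and 1.62 for Rian, Mirg, Snhg14 and Kcnq1ot1. For Ndn it was 41.2 times. Granule-like nuclei, which hold less Meg3, made up 28.5 to 60.5% of the neurons of a mouse. Treatment was tested within classes, but also over all nuclei, and for the Ube3a to Snhg14 ratio over all neurons. The class mix differs between mice in those pooled sums.

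Mice 1 to 4, which hold 1 mouse of each awake and isoflurane group, stood apart from the other 16. In neuronal sums they did so for 3 members. Meg3 was 8804 to 10585 CPM in them and 5014 to 8548 in the others, Snhg14 was 655 to 715 against 834 to 1063, and Ndn 38.8 to 79.3 against 1.93 to 20.5. In non-neuronal sums Snhg14 (54.4 to 63.2 against 81.4 to 146), Ube3a (176 to 212 against 219 to 345) and Ndn (66.8 to 122 against 0.680 to 33.7) stood apart, and Meg3 did not. The ranges of a pair do not overlap in any of these 6 cases. The labels give no batch. The study's methods describe tissue handled in batches that drew on every awake and isoflurane group, and a test corrected for batch. They do not say which mice shared a batch, so runs of consecutive mouse numbers were used in its place. The runs were mice 1 to 4, 10 to 13, 14 to 17, 18 to 20 and 25 to 29. Numbers 10 to 20 have no gap, so the cuts inside them are an assumption made here. Each awake and isoflurane group occurs once in the runs 1 to 4 and 14 to 17. The part of the higher mitochondrial share of these 4 libraries in the differences was not tested.

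For the antisense pair the ratio of Ube3a to Snhg14 UMIs was taken within each neuronal sum, where the scaling of the library cancels. It was lowest in mice 12 (1.06), 11 (1.09) and 10 (1.14) and highest in mice 20 (2.45), 19 (2.36) and 28 (2.17), and each of these sets of 3 mice holds an anesthetized mouse and an awake one. It averaged 1.66 ± 0.405 in 9 awake mice (1.06 to 2.36), 1.73 ± 0.418 in 7 isoflurane mice (1.09 to 2.45) and 1.89 ± 0.188 in 4 ketamine mice (SD). The groups overlap, and neither isoflurane (log2 difference 0.06, p = 0.748) nor ketamine (0.22, p = 0.277) differed from awake by a two-sided exact permutation test over mice. That test ignores the runs. Within the 4 runs that hold awake and isoflurane mice the log2 difference was 0.04, -0.21, 0.17 and -0.34, and against awake mouse 29 of their own run (ratio 2.05) the ketamine mice were lower by a log2 difference of -0.12, the opposite sign to the difference over all awake mice. By class the mean ratio was 1.65 to 1.96 in the 5 neuronal classes and 1.82 in OPC-like nuclei, and it was 2.93 in astrocyte-like, 3.22 in oligodendrocyte-like and 3.10 in microglia-like nuclei. The part of free neuronal RNA in these 3 glial ratios was not tested.

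**Figure D3:**
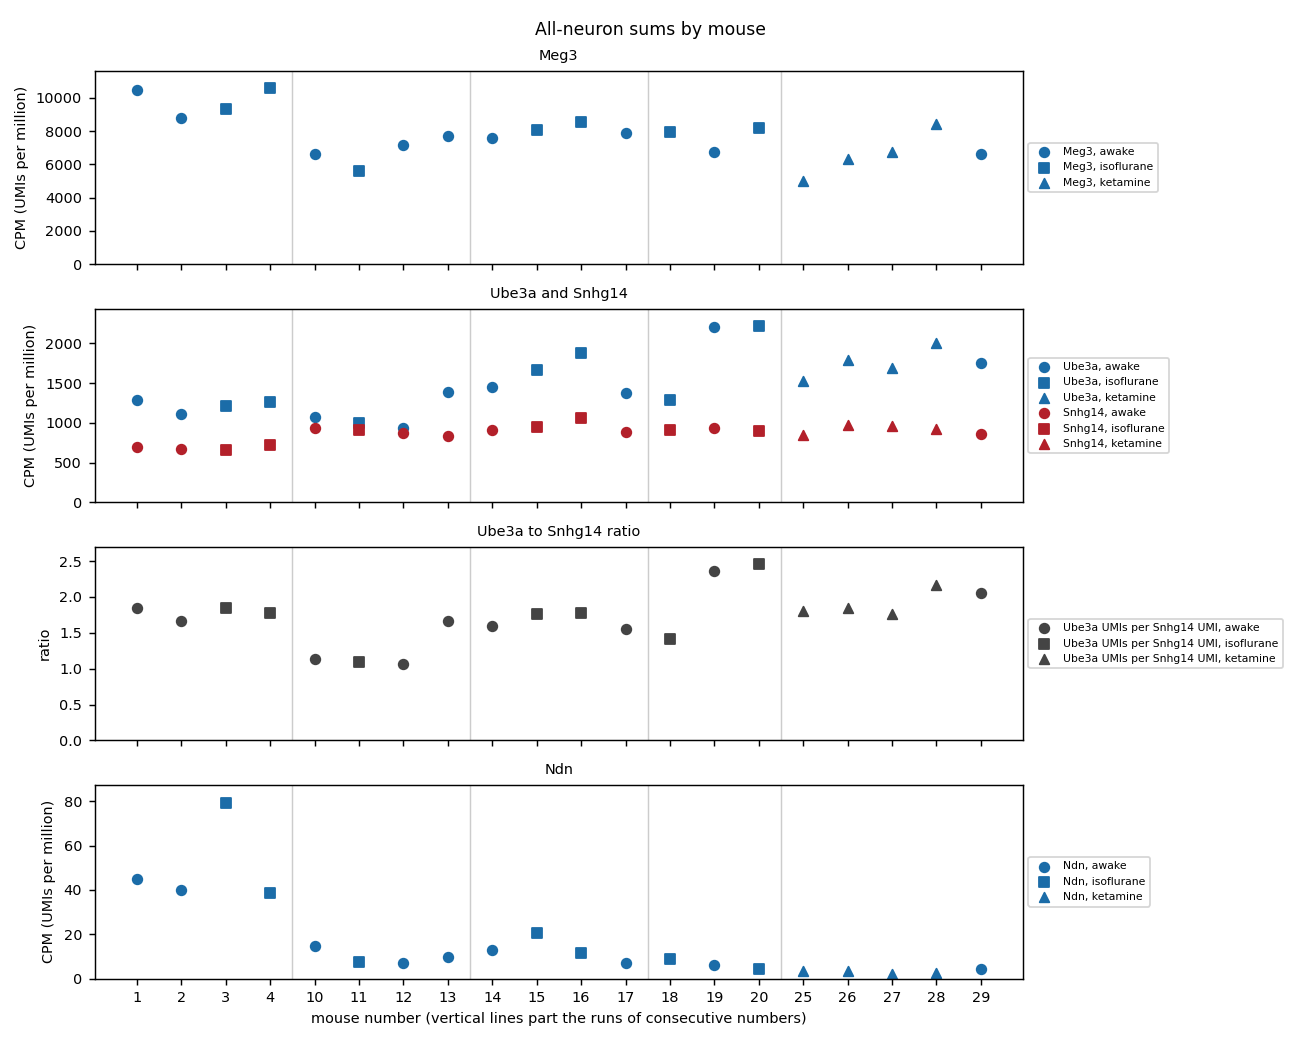
Levels of Meg3, Ube3a with Snhg14, and Ndn in CPM over neurons, and the ratio of Ube3a to Snhg14 UMIs, in each of the 20 mice in the order of their numbers, with circles for awake, squares for isoflurane and triangles for ketamine and lines between runs of consecutive numbers. Meg3 is at 8804 to 10585 in mice 1 to 4 and at most 8548 in the others, and the ratio is 1.06 to 1.14 in mice 10, 11 and 12.

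Treatments and genotype labels were compared over mice within 10 sums, all nuclei and 9 classes, in 1 fit of the 6 groups per sum (edgeR quasi-likelihood test, adjusted over all genes of the sum). A member was tested in a sum where its counts passed the low-count filter: all 9 in all nuclei and in the 5 neuronal classes, 8 in astrocyte-like, 7 in oligodendrocyte-like and in OPC-like and 6 in microglia-like nuclei, in all 82 values. The microglia-like fit left out mice 10, 11 and 12, which had fewer than 50 such nuclei. Isoflurane and ketamine were set against the same 9 awake mice.

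Under isoflurane no member was called. In CA1-like nuclei Meg3 ran from 7536 through a median of 9673 to 13185 CPM in the 9 awake mice and from 7716 through 11047 to 12474 in the 7 isoflurane mice, and the ranges overlap nearly whole (log2 fold change 0.04, SE 0.09, adjusted p = 0.869). Snhg14 there was 724 to 1030 awake (median 902) and 708 to 1042 under isoflurane (median 990), with a fold change of -0.03 (SE 0.13). Ube3a was 931 to 2353 awake (median 1336) and 1059 to 2269 under isoflurane (median 1295), with 0.06 (SE 0.18).

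Of the 82 values 0 passed the adjusted threshold in edgeR and 0 in DESeq2, where 4.81% of all 127025 gene-by-sum values did in edgeR, and 6 were at an unadjusted p under 0.05 (8 in DESeq2). Over all genes 4123 of 20540 in all nuclei and 2988 of 14881 in CA1-like nuclei had an unadjusted p under 0.05 in edgeR, so the 6 are no result about the members. Fold changes of the members were within 0.5 of 0 on the log2 scale in 79 of 82, with a median of -0.01. Mirg had the lowest unadjusted p values in pyramidal and inhibitory-like nuclei, at -0.22 in CA1-like (adjusted p = 0.231), -0.26 in CA3-like (0.238) and -0.22 in inhibitory-like nuclei (0.323). In granule-like nuclei Peg3 was at -0.32 (adjusted p = 0.198) and Grb10 at -0.29 (0.239). Without mouse 16, an isoflurane mouse, 3 values passed the threshold (share of all genes not given). With the runs as blocks 0 did. Within the 4 runs the log2 difference of isoflurane from awake over all neurons was -0.35 to 0.27 for Meg3, higher in 3 runs. For Ube3a it was -0.33 to 0.33, higher in 2. Granule-like nuclei, lower in both genes, made up 28.5 to 60.5% of neurons in awake and 33.3 to 51.3% in isoflurane mice. The part of this class mix in the within-run differences was not tested.

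**Figure D4:**
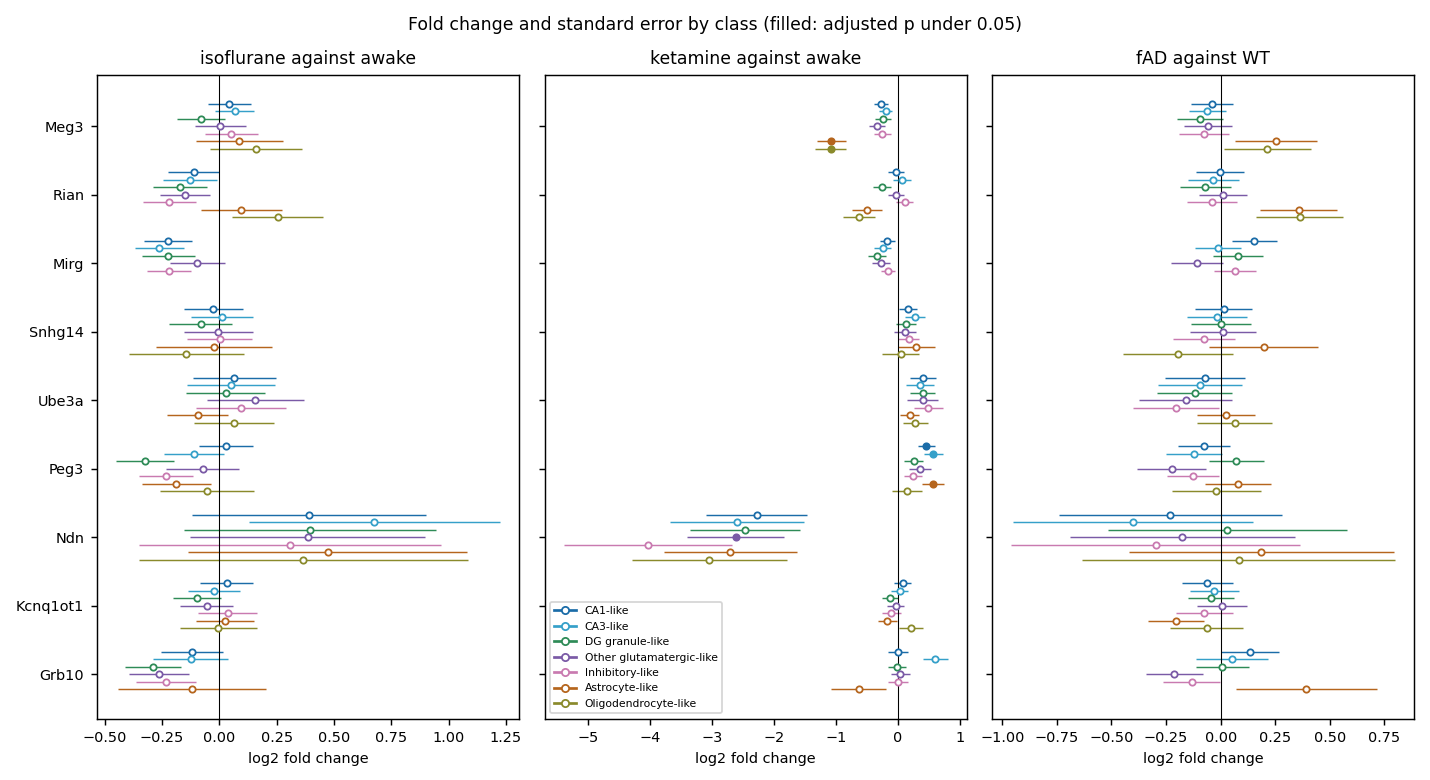
Log2 fold change with its standard error for each member in 7 cell classes, for isoflurane against awake, ketamine against awake and fAD against WT labels, with filled points where the adjusted p was under 0.05 (each panel has its own scale). The filled points are Meg3 in astrocyte-like and oligodendrocyte-like nuclei, Peg3 in CA1-like, CA3-like and astrocyte-like nuclei and Ndn in other glutamatergic-like nuclei, all under ketamine.

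Under ketamine 6 of the 82 values were called (7.32%), near the 7.99% of all gene-by-sum values called in that comparison. Their number is therefore no result about imprinted genes. DESeq2 called 10, but the share of all genes it called is not given, so that count is no result about the members either. The ketamine mice were numbered 25 to 28, next to only 1 awake mouse, 29, so the treatment and that run of numbers cannot be told apart but for this mouse. With the run as a block, 0 member values were called and 35 of 135478 over all genes (0.0258%). The blocked fold changes of the 6 values were 0.34, 0.46 and 0.50 for Peg3 in CA1-like, CA3-like and astrocyte-like nuclei, -0.27 and -0.86 for Meg3 in astrocyte-like and oligodendrocyte-like nuclei, and 0.26 for Ndn.

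Peg3 was higher under ketamine in both pyramidal classes. In CA1-like nuclei it was at 115.6, 109.3, 87.6 and 112.2 CPM in ketamine mice 25, 26, 27 and 28, against 62.0 to 94.4 in the 9 awake mice (median 83.8) and 73.5 to 108.4 in the 7 isoflurane mice (median 88.0). Of the ketamine mice 3 lay above every awake mouse. The log2 fold change was 0.46 (SE 0.14, edgeR, adjusted p = 0.041). By genotype label it was 0.20 (SE 0.19) in WT and 0.71 (SE 0.21) in fAD mice. The same values were 0.45 and 0.69 in CA3-like and 0.63 and 0.50 in astrocyte-like nuclei, and none of these was called.

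In CA3-like nuclei all 4 ketamine mice, at 103.9 to 119.6, lay above the awake mice at 58.1 to 103.3 by a narrow margin, and the fold change was 0.57 (SE 0.15, edgeR, adjusted p = 0.0314). In astrocyte-like nuclei the ketamine mice at 106.2 to 147.0 overlapped awake ones at 71.6 to 139.5 (0.57, SE 0.17, edgeR, adjusted p = 0.0474). In granule-like nuclei the value was 0.25 (SE 0.15, adjusted p = 0.263) and in inhibitory-like nuclei 0.24 (SE 0.14, adjusted p = 0.326), and neither was called.

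Awake mouse 29 of the same run had 87.4 in CA1-like, 87.6 in CA3-like and 94.5 in astrocyte-like nuclei, so the ketamine mean stood 0.28, 0.34 and 0.48 above it on the log2 scale. Over all neurons Peg3 was 143.5 to 147.0 in the ketamine mice and 115.2 in mouse 29, with 96.2 to 131.6 in all 9 awake mice. The calls rested on few mice. Left out singly, mice 1, 2, 13, 14, 17, 25, 26, 27 and 28 each ended the CA1-like call, mice 2, 17, 25, 26, 27 and 28 the CA3-like call, and 13 of the 20 mice the astrocyte-like call. Without mice 11, 14, 17 and 20 together none of the 3 Peg3 values was called (0.47, 0.52 and 0.56), and the Meg3 and Ndn values below were.

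Meg3 was called lower under ketamine in 2 of the 4 glial classes tested. In astrocyte-like nuclei the ketamine mice were at 209 to 243 CPM and the awake mice at 255 to 748 (median 463), and in oligodendrocyte-like nuclei the ranges were 182 to 309 and 363 to 966 (median 580). Neither pair of ranges overlaps. The log2 fold changes were -1.07 (SE 0.24, edgeR, adjusted p = 0.00898) and -1.09 (SE 0.25, edgeR, adjusted p = 0.0192). Mouse 29 had the lowest awake value in astrocyte-like nuclei, 255, and 419 in oligodendrocyte-like nuclei, so that within its run the ketamine mean was lower by 0.17 and by 0.64 on the log2 scale. The astrocyte-like call was lost without mouse 26 or 27, and the oligodendrocyte-like call without mouse 2, 25, 27 or 28.

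The pan-neuronal genes in the same glial nuclei moved the same way, and the members higher in neurons moved in both directions. In astrocyte-like nuclei Syt1 was 199 ± 82.8 awake (SD, n = 9) and 81.6 ± 22.9 under ketamine (n = 4), Rbfox3 39.8 ± 15.8 and 17.6 ± 4.73, and Snap25 148 ± 50.6 and 75.2 ± 22.8. In oligodendrocyte-like nuclei Syt1 was 227 ± 134 and 109 ± 24.5. Rian was lower too (-0.50 in astrocyte-like and -0.63 in oligodendrocyte-like nuclei), and Mirg averaged 4.29 CPM awake and 0.69 under ketamine in astrocyte-like nuclei. Snhg14 (0.29 and 0.04) and Ube3a (0.19 and 0.28) were not lower in these 2 classes, and none of these members was called there. The part of free neuronal RNA in the Meg3 difference was not tested. In microglia-like nuclei the Meg3 fold change was of like size but not called (-1.06, SE 0.35, edgeR, adjusted p = 0.156), and in OPC-like nuclei it was -0.47 (SE 0.25, edgeR, adjusted p = 0.355). In the neurons themselves Meg3 was not called, with log2 fold changes between -0.33 and -0.20 over the 5 neuronal classes (CA1-like -0.27, SE 0.11, adjusted p = 0.128).

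Ndn was called in other glutamatergic-like nuclei alone among the 10 sums tested (-2.62, SE 0.79, edgeR, adjusted p = 0.047), and 12 of the 20 mice, left out singly, each ended the call. In the other 9 sums its fold change was -4.08 to -1.65, none of them called. The ketamine mice were at 2.05 to 4.21 CPM, but awake mouse 29 was at 2.47, inside their range, and the 4 mice at 41.1 to 85.5 were mice 1 to 4. With the runs as blocks its fold change turned positive, as given above.

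Ube3a and Snhg14 were not called in any sum. In CA1-like nuclei Ube3a was at 1543, 1702, 1577 and 2003 CPM in ketamine mice 25 to 28, within the awake range of 931 to 2353, with a log2 fold change of 0.40 (SE 0.21, adjusted p = 0.224). Over all neurons the ketamine mice averaged 1750 and mouse 29 had 1751 CPM. Snhg14 in CA1-like nuclei was 885 to 979 under ketamine, a change of 0.16 (SE 0.15, adjusted p = 0.516). Grb10 in CA3-like nuclei was at 0.60 (SE 0.20, adjusted p = 0.0706), and Kcnq1ot1, Rian and Mirg were called in no sum.

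**Figure D5:**
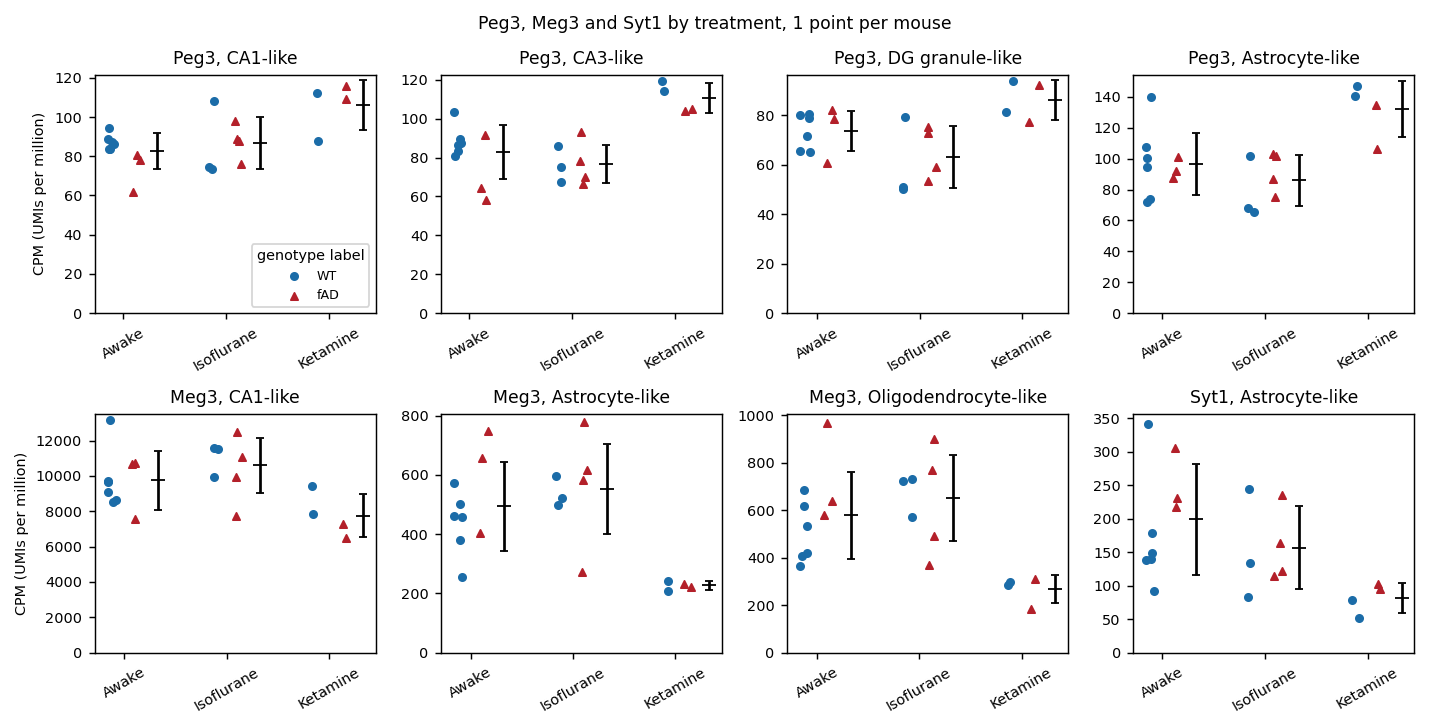
Peg3 in 4 classes, Meg3 in 3 classes and the pan-neuronal Syt1 in astrocyte-like nuclei, in CPM, with 1 point per mouse by treatment, blue circles for WT and red triangles for fAD labels, and bars for the mean and SD. The ketamine mice lie at 103.9 to 119.6 for Peg3 in CA3-like nuclei, above the awake mice, and at 209 to 243 for Meg3 in astrocyte-like nuclei, below them, and Syt1 in those nuclei is lower too (81.6 against 199).

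For the genotype labels, averaged over awake and isoflurane mice, 0 of 82 member values were called by edgeR and 0 by DESeq2, 0 were at an unadjusted p under 0.05, and 0% of all genes were called. The interaction of genotype label and isoflurane gave 0 calls in either tool as well, with 2 values at an unadjusted p under 0.05 and 0% of all genes called. Over all genes in CA1-like nuclei 570 of 14881 had an unadjusted p under 0.05 for the interaction and 145 for the genotype label (edgeR). Both are below the share of 0.05 that such a test would give without any effect. The absence of calls therefore does not show that the genotype groups are alike. Ube3a in CA1-like nuclei, the class and gene that the study names, was at 1202, 1054 and 1318 CPM in the fAD-Awake mice 2, 10 and 17 and at 931 to 2353 in the WT-Awake mice (median 1390). Under isoflurane it was at 1249, 1059, 1758 and 2269 in the mice 4, 11, 15 and 20 labelled fAD and at 1239, 1678 and 1295 in WT mice 3, 16 and 18. The groups overlap in both states. The study lists Ube3a among its top genes differing between genotypes under anesthesia in CA1 excitatory neurons. Its test (MAST) compared nuclei and was corrected for batch, with other group sizes, whereas mice are the units here. The difference of fAD from WT was -0.40 (SE 0.25, adjusted p = 1.0) awake and 0.25 (SE 0.27, adjusted p = 0.993) under isoflurane, and their difference, the interaction, was 0.65 (SE 0.37, unadjusted p = 0.0917, adjusted p = 0.875). Mice 11 and 20, which give the lowest and highest of the isoflurane values labelled fAD, and fAD-Awake mouse 17 are those with low Prnp. Without them and mouse 14 the differences were -0.50 awake (SE 0.28, edgeR, adjusted p = 0.930) and 0.09 under isoflurane (SE 0.30, edgeR, adjusted p = 1.0), and the interaction 0.59 (SE 0.40, unadjusted p = 0.161, edgeR). With the runs as blocks they were -0.19, 0.28 and 0.47 (interaction SE 0.23, unadjusted p = 0.0547, edgeR, adjusted p = 0.764). Neither setting gave a member call for genotype label or interaction.

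Of the 42 other imprinted genes, 258 values were tested over the 10 sums, of which 1.55% were called under isoflurane (4.81% of all genes) and 9.30% under ketamine (7.99% of all genes). The called values belonged to 2 genes under isoflurane and 10 under ketamine, and not every sum with a call is listed below. For genotype label and interaction 0 were called. Under isoflurane Zdbf2, a paternally expressed gene, fell in other glutamatergic-like nuclei (from 61.2 ± 18.0 awake, n = 9, to 30.6 ± 8.15, n = 7, SD, log2 fold change -1.11) and in CA1-like nuclei (-0.58), and Ddc rose in oligodendrocyte-like nuclei (1.60). Under ketamine Zdbf2 fell in the same 2 classes (-1.30 and -1.11) and Ddc rose in oligodendrocyte-like nuclei (1.13). Copg2, a coat protein gene beside Mest, rose in 5 neuronal classes and over all nuclei (0.40 to 0.54). Nnat (neuronatin) fell in astrocyte-like (-1.24), oligodendrocyte-like (-1.63) and OPC-like (-1.13) nuclei, and Rasgrf1 in astrocyte-like (-0.89) and oligodendrocyte-like (-0.94) nuclei. Rasgrf1 was among the genes higher in neurons (3.36), and the pan-neuronal Syt1 was lower in the same glial nuclei under ketamine (81.6 against 199 CPM in astrocyte-like and 109 against 227 in oligodendrocyte-like nuclei). The part of neuronal RNA in the fall of Rasgrf1 was not tested. Inpp5f (0.84 in astrocyte-like nuclei) and Airn (0.78 in granule-like nuclei) rose, Begain fell over all nuclei (-0.55), and Mcts2 fell in CA3-like nuclei to a level at which some ketamine mice had no UMI. Kcnq1, which shares its locus with Kcnq1ot1 on the other strand, rose in granule-like nuclei from 3.03 ± 1.71 to 7.29 ± 2.01 CPM (1.26), while Kcnq1ot1 there was at -0.13 and not called. These comparisons use the same awake mice and the same ketamine run as those of the members. The values are from the fit without blocks. With the run as a block few calls remained over all genes under ketamine, as given above, and blocked values of these genes are not given.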

How the data were processed

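The deposited files held raw UMI counts per gene and nucleus for 20 hippocampus libraries, which the authors made with Cell Ranger 5.0.0 on mm10 with introns counted, and whose depth was 9243992 to 25394891 UMIs. The study's later removal of background RNA and doublets was not applied to these counts as far as their header shows, and no doublet caller was run here. Fixed markers picked seed nuclei, and nuclei were placed in 13 classes by a Poisson likelihood over 1814 profile genes (margin of at least 5). The 10198 mixed nuclei (6.34%), which include doublets of 2 types, were left out. Counts were summed per mouse and class (at least 50 nuclei). Levels are CPM, the UMIs of a gene in 1000000 UMIs of the sum. Tests used edgeR 4.0.16 in R 4.3.3 (filterByExpr, TMM, quasi-likelihood F test, Benjamini-Hochberg adjustment over all genes, threshold 0.05), and the standard error is the log2 fold change over the root of F. Tables used Python 3.11.15 with pandas 2.3.3 and scipy 1.17.1. Mice are separate animals. On simulated counts with 100 changed genes of each size, the ketamine comparison in CA1-like sums recovered 2% of genes at a log2 change of 0.5 and 39% at 1 (14529 genes), and the neuronal comparison 54% and 100% (18064 genes). The simulation gave every gene the same biological coefficient of variation, 0.274, so it does not carry over to single genes of the data. Alternatives were DESeq2 1.42.0, no filter, RLE scaling, only the groups compared, a block for each run of consecutive mice, a stricter marker gate, thinning to 1000 UMIs (41436 nuclei left out) and leaving out mice. The study's own test was corrected for batch, and the runs stand in for batches that the labels do not give.

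The text names the 9 members, Prnp, Arc and Npas4 as label checks, Syt1, Rbfox3 and Snap25 as the fixed pan-neuronal markers, up to 10 called genes of the list of other imprinted genes per comparison by adjusted p, and the 5 genes nearest in pattern to Meg3, Ube3a and Snhg14, of which 1 is not reported here. Dlk1 and Begain in the granule comparison were added after their values were seen. The members and lists were chosen with earlier results of these data known.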

Additional observations from a re-analysis of the deposited data

Results flagged for a closer look

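Dixon's 95% limit was applied to 48 sets of a gene, a sum and a group of 4 to 10 mice. In 6 sets a mouse lay farther from its nearest neighbour than that limit allows. Chance gives this in about 1 of 20 independent groups. These sets share mice, and sums such as neurons and other glutamatergic-like nuclei overlap, so 6 of 48 cannot be read against that rate. All but 1 of the 6 concern mice 1 and 4, of the 4 libraries with the higher mitochondrial share. Meg3 in neurons of the WT-Awake group was 10490 CPM in mouse 1, with the next mouse at 7707. Ndn in the same group was 45.0 in neurons of mouse 1 (next 12.8), 68.1 in its non-neuronal nuclei (next 20.6) and 41.8 in its other glutamatergic-like nuclei (next 16.8). Ndn in non-neuronal nuclei of the fAD-GA group was 82.8 in mouse 4 (next 17.7). Rian in neurons of the WT-Awake group was 368 in mouse 19, where granule-like nuclei made up 60.5% of neurons, with the next mouse at 418. The part of the library or of the class composition in these values was not tested.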

How the results depend on the processing

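The fold changes of Meg3, Rian, Mirg, Snhg14 and Ube3a between neurons and non-neuronal nuclei, and between granule-like and pyramidal nuclei, kept their direction and call in all 8 settings run (for Meg3, 3.85 to 4.31 and -2.43 to -2.21). On nuclei thinned to 1000 UMIs Ndn turned to 0.22 in neurons against non-neuronal nuclei and Kcnq1ot1 to 0.041 in granule-like against pyramidal nuclei, neither called. Ndn in neurons against non-neuronal nuclei was called in 6 of the 8 settings. The count of member values called under ketamine was 6, and it was 10 with DESeq2, 10 with only the groups compared, 0 with a block for each run of consecutive mice, 3 without mice 12, 13 and 20, 3 without mice 11, 14, 17 and 20 (chosen after seeing the data, for Prnp), 3 with the stricter marker gate (34 values tested) and 0 to 9 with 1 mouse left out, where 0 was without mouse 27 and 1 without mouse 2, 25, 26 or 28, and the lone mouse of an arm is assumed to vary like the other groups. With that block Ndn in other glutamatergic-like nuclei turned to 0.26 under ketamine. Under isoflurane the count stayed at 0 but for 3 without mouse 16 (0 to 3 with 1 mouse left out). Apart from the main fit and the block, the share of all genes called in each setting is not given, so these counts are no result about the members. The Ube3a to Snhg14 ratio under isoflurane, 0.06 on the log2 scale, turned to -0.11 without mice 12, 13 and 20 and ran from -0.030 to 0.16 with 1 mouse left out, and it was below 0 without mouse 10, 12 or 20. The cause of these changes was not tested. Each mouse number occurs in only 1 group, so no mice are paired by number, and the block for runs gave 0 member calls in the isoflurane, genotype and interaction comparisons as well. With 2 ketamine mice per genotype label and 1 awake mouse in their run, how often this comparison detects changes of the size seen for Peg3 is not known. The simulated counts cannot tell, because they gave every gene the same spread and changed few genes. In the data 10.8% of the genes tested in CA1-like nuclei were called.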

Other observations

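Levels of neighbouring members, 3 pairs of the Meg3, Rian and Mirg region and the antisense pair Ube3a and Snhg14, were compared across the 16 mice other than mice 1 to 4, which form a separate cluster, in 8 relations. In neuronal sums Rian and Mirg ran together (Pearson r = 0.79, permutation p = 0.00027, adjusted p = 0.00216, Spearman rho = 0.79, permutation p = 0.00038, adjusted p = 0.00304), and r was 0.79 without the 2 mice farthest from the median. For Meg3 with Mirg r was 0.65 (permutation p = 0.00616, adjusted p = 0.0246) and rho 0.60 (permutation p = 0.0149, adjusted p = 0.0596), and r fell to 0.46 without 2 such mice. Meg3 with Rian gave r = 0.43 (permutation p = 0.0931, adjusted p = 0.124) and rho = 0.41 (permutation p = 0.111, adjusted p = 0.148), and 0.19 without 2 mice. Ube3a with Snhg14 gave r = 0.31 (permutation p = 0.249, adjusted p = 0.249) and rho = 0.33 (permutation p = 0.217, adjusted p = 0.248). The neuronal sums of a mouse share 1 library and 1 mix of classes, and within CA1-like sums, where that mix is narrower, r was 0.57 for Rian with Mirg (permutation p = 0.0208, adjusted p = 0.0416), with rho = 0.46 (permutation p = 0.078, adjusted p = 0.125), 0.47 for Meg3 with Mirg, 0.31 for Ube3a with Snhg14 and 0.61 for Meg3 with Rian. Without the 2 mice farthest from the median these last 3 fell to 0.082, 0.033 and 0.33, so over all 16 mice they rest on those mice, and Rian with Mirg stayed at 0.57. Taken as deviations from group means, r in neurons was 0.80 for Rian with Mirg, 0.53 for Meg3 with Mirg and 0.39 for Meg3 with Rian, and in CA1-like sums it was 0.45, 0.15 and 0.20, so the CA1-like relations of Meg3 were weak within groups. The permutations ignore the runs of mouse numbers. Taken as deviations from run means, r in neurons was 0.89 for Rian with Mirg, 0.88 for Meg3 with Mirg, 0.73 for Meg3 with Rian and 0.23 for Ube3a with Snhg14, and in CA1-like sums it was 0.58, 0.79, 0.64 and 0.21.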
